A study of Mus musculus with 15 samples.

Results

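RNA was compared between 7 mouse brain tumours that carried the mutant histone H3.3G34R and 8 that carried wild-type H3.3, taken over both states of the gene Atrx. All 15 libraries of the series belong to this comparison, each placed by the histone named in its label, and Atrx genotype was a covariate. The tumours came from C57BL/6 mice in which Nestin Tv-a puts the receptor for avian retroviruses on Nestin-expressing neural progenitors. DF-1 chicken cells injected into the brain produced RCAS viruses for Cre recombinase (RCAS-Cre), the growth factor PDGFA (RCAS-PDGFA) and a GFP-tagged histone, and tumour tissue was taken from the frontal cortex at the functional end point. With the mutant histone, 4 tumours arose in p53 fl/fl ATRX fl/fl mice (ATRXfl_G34R) and 3 in p53 fl/fl mice with intact Atrx (p53_G34R). With the wild-type histone there were 4 tumours in p53 fl/fl ATRX fl/fl mice (ATRXfl_WT) and 4 in p53 fl/fl mice (p53_WT). All groups share the floxed p53 alleles, Cre, PDGFA and the viral delivery, so no tumour without PDGFA and no normal brain entered the comparison. The title of the series names Polycomb targets, Notch and neuronal lineage, and says that the mutant histone and Atrx loss act together on them. No label says that each library is a separate mouse, so p-values measure the spread between these libraries. The 15 libraries carry 12 title codes, and 3 codes are each shared by a pair of libraries of the same group. These pairs are ATRXfl_G34R replicates 1 and 4, p53_G34R replicates 2 and 3, and p53_WT replicates 3 and 4. What a shared code means is not stated.

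Histone H3.3 is the H3 variant that is placed into chromatin outside DNA replication, by HIRA at active genes and by DAXX with ATRX at repeats and telomeres. Glycine 34 lies close to lysine 36 of the histone tail, which SETD2 trimethylates on transcribed genes and which NSD enzymes dimethylate, marks that oppose the Polycomb complex PRC2. In people, H3.3 G34 mutations occur in gliomas of the cerebral hemispheres, mostly with loss of ATRX, and often with a changed or amplified PDGFRA.

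Both mouse genes for H3.3 have the same glycine codon at the mutated position, printed here because the whole comparison turns on that residue. The sequences are the coding strand of codons 27 to 40 (GENCODE vM21 transcripts on mm10, minus strand in both genes), with codon 34, GGG for glycine, in capitals and residues counted without the first methionine. H3f3a lies at chr1:180811804-180811845 and H3f3b at chr11:116023887-116023928.
H3f3a: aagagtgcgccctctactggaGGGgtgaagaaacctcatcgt
H3f3b: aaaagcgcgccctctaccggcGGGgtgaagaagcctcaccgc
The stretches differ at 7 of 42 bases and encode the same residues, and the substitution H3.3G34R replaces this glycine with arginine. In the tumours the mutant copy came from the RCAS virus, and its reads were not told apart from those of the mouse genes.

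Levels are reads recovered from the deposited tables, scaled over all 15 libraries, and 3 values for a group are its lowest, median and highest tumour. H3f3a, which shares reads with processed pseudogenes, had 149, 224 and 309 in H3.3G34R tumours, against 143, 229 and 335 in H3.3WT tumours, and H3f3b had 6347, 10625 and 14104 in H3.3G34R tumours, against 3618, 9176 and 10779.8 in H3.3WT tumours. Both H3.3 genes overlapped, with log2 differences (H3.3G34R over H3.3WT) of 0.043 and 0.30. Atrx averaged 2376 in the 8 Atrx-floxed tumours and 6687 in the 7 Atrx-intact ones, a log2 difference of -1.51 with an exact 2-sided permutation p of 0.000155, the smallest that 6435 splits allow. Between the histones, the pooled log2 difference of Atrx was -0.15 (SE 0.19, limma unadjusted p = 0.436). Pdgfa had 16105, 20778 and 45496 in H3.3G34R tumours, against 1239, 24985 and 58931 in H3.3WT tumours, and its receptor gene Pdgfra had 53836, 89526 and 113919.8 in H3.3G34R tumours, against 5471, 89356 and 133069 in H3.3WT tumours. For H3f3b, Pdgfa and Pdgfra the lowest value of all 15 belonged to p53_WT replicate 3.

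Libraries held 22807315 to 30574393 reads in genes for H3.3G34R and 24022308 to 35679129 for H3.3WT. Markers of oligodendrocyte progenitors, glial precursors that respond to PDGFA, were detected in every library, with a summed level of 153235, 266372 and 305258 in H3.3G34R tumours, against 24664, 233773 and 425009 in H3.3WT tumours. The lowest of these was p53_WT replicate 3, which also had the highest neuronal markers: these summed to 557, 1454 and 8969 in H3.3G34R tumours, against 102, 696 and 105044 in H3.3WT tumours. B and plasma cell markers summed to 282, 1624 and 66957 in H3.3G34R tumours, against 220.05, 867 and 3643 in H3.3WT tumours, and the 2 highest libraries were ATRXfl_G34R replicate 4 at 66957 and p53_G34R replicate 1 at 12123. Endothelial, mural and erythroid markers were all highest in ATRXfl_WT replicate 1. No marker of the 13 lists was at 0 in every library, and in bulk tissue fewer cells of a type and less RNA per cell cannot be told apart. The first principal component held 25.1% of the variance and set p53_WT replicate 3 apart (score 203), with 1.17% of that score's variance explained by the histone. The second held 15.01% and set ATRXfl_G34R replicate 4 and p53_G34R replicate 1 apart (scores 90.0 and 93.2). Xist exceeded 1000 in 3 of 7 H3.3G34R and 5 of 8 H3.3WT tumours, and the labels give no sex.

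**Figure D1:**
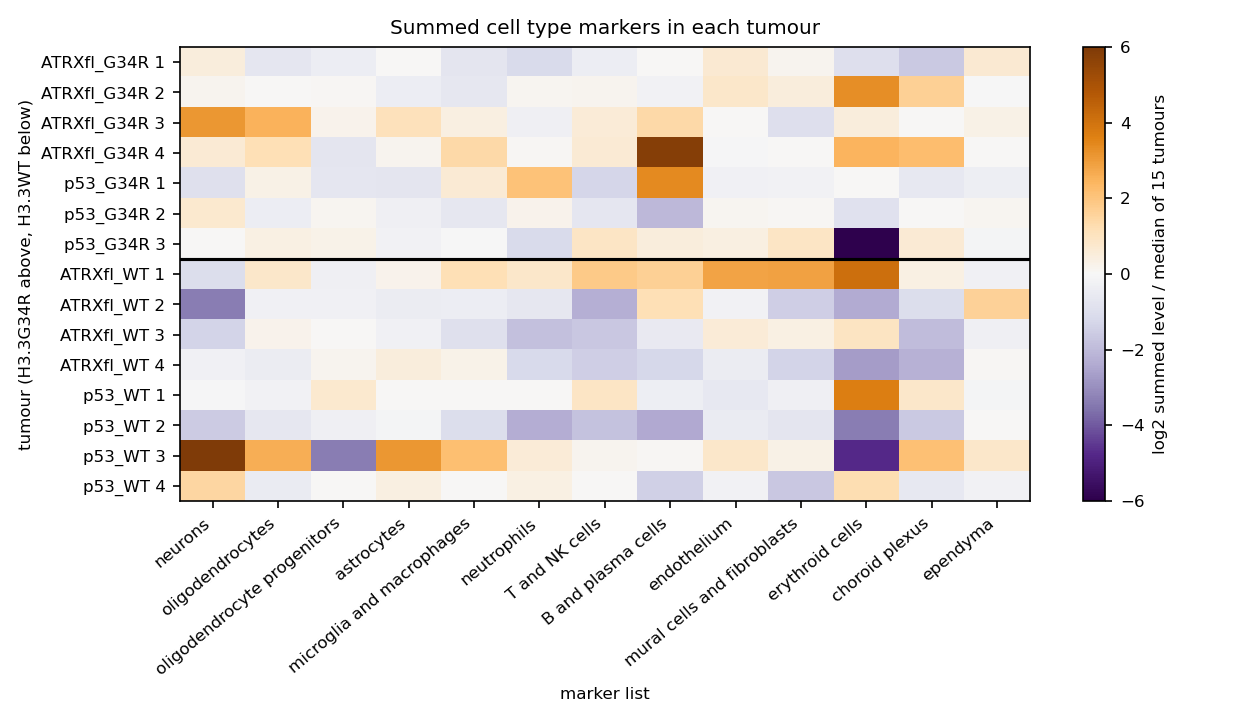
Summed level of each cell type's markers in each tumour, as log2 of the ratio to the median of the 15 tumours (colour), with the 7 H3.3G34R tumours above the line and the 8 H3.3WT tumours below it. Neuronal markers are highest in p53_WT replicate 3, B and plasma cell markers in ATRXfl_G34R replicate 4 and p53_G34R replicate 1, and vascular and erythroid markers in ATRXfl_WT replicate 1.

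With limma, no gene passed the threshold between the histones over both Atrx states. Of 17776 tested genes 0 (0%) had an adjusted p under 0.05, the smallest adjusted p was 0.999, and 421 genes (2.37%) had an unadjusted p under 0.05. Of these 200 (1.13%) were higher and 221 (1.24%) were lower with H3.3G34R. An unadjusted threshold of 0.05 passes, on average, a larger share than 2.37% when no gene differs, so passing it does not mark a gene as changed. The edgeR quasi-likelihood test also called 0 genes, with 556 at an unadjusted p under 0.05, and limma-voom called 0. The histone accounted for a median of 2.84% of a gene's variance and Atrx genotype for 3.89%, and the median share left to neither was 89.8%.

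DESeq2 alone made calls, 8 of 16953 genes (0.0472%). Higher with H3.3G34R were the plasma cell genes Igkj1 (an immunoglobulin kappa joining segment, log2 6.22, DESeq2 adjusted p = 0.000896) and Jchain (the joining chain of secreted immunoglobulin, log2 4.33, DESeq2 adjusted p = 0.00746), the growth factor gene Gdnf, the myeloid gene Slfn4 and the actin regulator Cfl2. Lower were the transcription factor gene Tbx18, the long noncoding RNA 2600014E21Rik and the matrix protease gene Mmp2. These calls depended on single libraries: leaving out each in turn gave 0 to 11 DESeq2 calls, and the 0 came without ATRXfl_WT replicate 4. Without ATRXfl_G34R replicate 4 a single call was left, Tbx18. Without p53_G34R replicate 1 there were 2 calls, and Igkj1 was the only one of the 8 among them. Fewer calls also came without p53_WT replicate 1 (4), p53_WT replicate 2 (4) and p53_G34R replicate 2 (5). With both immunoglobulin-rich libraries left out, DESeq2 made 1 call, which was none of the 8. Gdnf kept its DESeq2 call in 12 of the 15 leave-outs and Tbx18 in 11, against 4 for Cfl2 and 5 for Mmp2.

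Among the genes with the smallest limma p, several were higher with H3.3G34R in both Atrx states, but none passed the adjusted threshold (limma adjusted p = 0.999 for each gene named here). Gdnf (chr15:7810846-7837575, protein-coding), the ligand of the RET receptor complex, had 109.9, 355 and 1209 in H3.3G34R tumours, against 41, 100.4 and 256 in H3.3WT tumours. All 7 H3.3G34R tumours lay above the H3.3WT median and 6 lay above every H3.3WT tumour. Its log2 difference was 2.12 (SE 0.50, limma unadjusted p = 0.00067), with 2.74 in Atrx-floxed and 1.39 in Atrx-intact tumours, and it stayed between 1.88 and 2.49 when any 1 library was left out. The receptor gene Ret had 34.6, 183 and 934 in H3.3G34R tumours, against 41.5, 86 and 1026 in H3.3WT tumours, and its groups overlapped throughout (log2 1.14).

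Cfl2 (chr12:54858809-54862877), which encodes the muscle-type actin-severing protein cofilin, had 2299.8, 3887 and 5564 in H3.3G34R tumours, against 1114, 1936 and 2716 in H3.3WT tumours, a log2 difference of 0.88 (SE 0.20, limma unadjusted p = 0.000446). It was above the highest H3.3WT tumour in 5 of 7 H3.3G34R tumours, with 0.75 in Atrx-floxed and 1.03 in Atrx-intact tumours. Caveolin genes Cav1 and Cav2, neighbours on chromosome 6 whose proteins form caveolae, pointed the same way. Cav1 (chr6:17306335-17341452) had 1529, 2467 and 3753 in H3.3G34R tumours, against 576, 1228 and 2264 in H3.3WT tumours, a log2 difference of 1.05 (SE 0.28, limma unadjusted p = 0.00176). Cav2 (chr6:17281185-17289115) had 2349, 3351 and 4148 in H3.3G34R tumours, against 1512, 1889 and 3401 in H3.3WT tumours, a log2 difference of 0.64 (SE 0.19, limma unadjusted p = 0.00438). For Cav1, 5 of 7 H3.3G34R tumours exceeded every H3.3WT tumour, and for Cav2, 3 of 7 did.

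A second cluster lay on chromosome 15. Trib1 (chr15:59648350-59657099), a pseudokinase that directs protein degradation by COP1, had 5612, 9437 and 13749.9 in H3.3G34R tumours, against 1888, 5172 and 8437 in H3.3WT tumours. Next to it Nsmce2 (chr15:59374247-59601684), a SUMO ligase of the SMC5/6 repair complex, had 828, 1159.5 and 1444 in H3.3G34R tumours, against 610.3, 729 and 968 in H3.3WT tumours. Their log2 differences were 0.91 (SE 0.26, limma unadjusted p = 0.00277) and 0.52 (SE 0.15, limma unadjusted p = 0.00377). Farther along, Arfgap3 (chr15:83299739-83350247), a GTPase-activating protein of Golgi vesicles, had 1679, 2873 and 3719 in H3.3G34R tumours, against 1010.3, 1459 and 2155 in H3.3WT tumours, with a log2 difference of 0.73 (SE 0.17, limma unadjusted p = 0.000755). In Nsmce2 and Arfgap3, 5 of 7 H3.3G34R tumours were above all H3.3WT tumours, and in Trib1 4 of 7 were.

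The other genes named on the higher side had mixed roles. Jun, an AP-1 subunit of the immediate early response, had 5448, 10564 and 18092 in H3.3G34R tumours, against 3330.5, 5379 and 8082 in H3.3WT tumours (log2 difference 0.84, SE 0.26, limma unadjusted p = 0.00612). Hes1, the Notch effector and repressor of neuronal differentiation, had 927, 1239 and 1791 in H3.3G34R tumours, against 484, 802 and 1594 in H3.3WT tumours (log2 difference 0.71, SE 0.22, limma unadjusted p = 0.00661). Il6, an inflammatory cytokine, had 9.76, 19.7 and 359.8 in H3.3G34R tumours, against 0.871, 8.06 and 60.6 in H3.3WT tumours, with the highest 3 values in ATRXfl_G34R tumours (log2 difference 2.57, SE 0.80, limma unadjusted p = 0.00578). Slfn4, a myeloid gene with near-identical family members, had 33.7, 111 and 1358 in H3.3G34R tumours, against 8.5, 26.3 and 66.4 in H3.3WT tumours, and its highest value was p53_G34R replicate 1. The immunoglobulin constant gene Ighg2b, which also has close copies, had 3.46, 477 and 13284 in H3.3G34R tumours, against 1.04, 5.33 and 263 in H3.3WT tumours, with its highest value in ATRXfl_G34R replicate 4. Jchain had 18.2, 203 and 6191 in H3.3G34R tumours, against 10.4, 23.4 and 324 in H3.3WT tumours, and Igkj1 had 1.02, 21.4 and 997 in H3.3G34R tumours, against 0, 1.71 and 14.7 in H3.3WT tumours. These 2 genes and Ighg2b were highest in ATRXfl_G34R replicate 4 and p53_G34R replicate 1, which also had the highest B and plasma cell marker sums. Jchain is itself in that marker list, as is the kappa constant gene Igkc, so these readings are not independent. Igkj1 passed the filter, a mean of at least 10, only through tumours where it was high. The part of infiltrating cells in the difference of these genes was not tested. Without ATRXfl_G34R replicate 4 and p53_G34R replicate 1 the log2 difference was 1.24 for Jchain, against 2.73 with them, and 2.74 for Ighg2b, against 4.18. Slfn4 stood at 1.70 without them and 2.36 with them, and Il6 at 2.40 and 2.57.

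**Figure D2:**
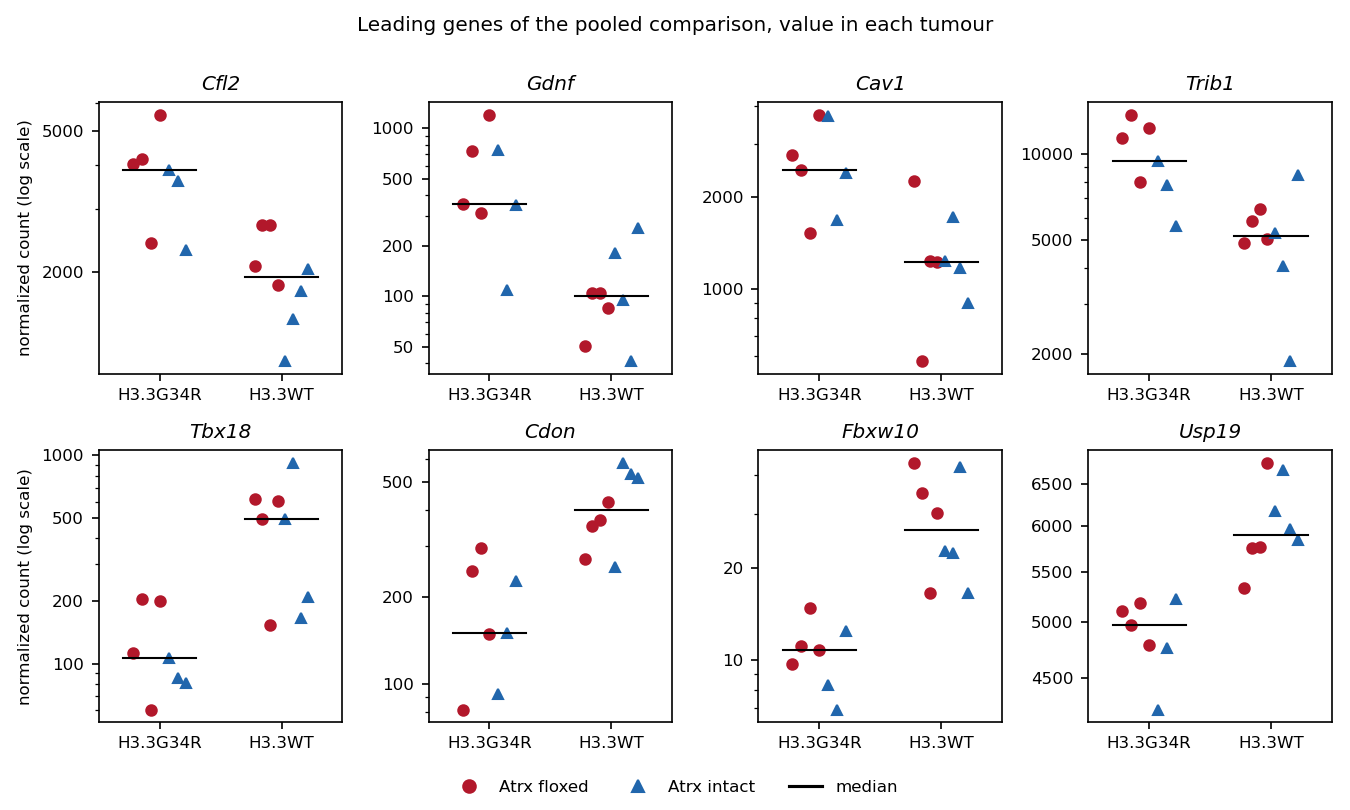
Normalized count (log axis) of 8 leading genes in each tumour, H3.3G34R left and H3.3WT right, with circles for Atrx-floxed and triangles for Atrx-intact tumours and a bar at the median of each histone. The groups overlap in Cfl2, Gdnf, Cav1, Trib1, Tbx18 and Cdon, and do not overlap in Fbxw10 and Usp19.

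On the lower side no gene passed limma's adjusted threshold either. Tbx18 (chr9:87702800-87731260), a T-box factor of mural cells and other mesenchyme, had 60.2, 106 and 205 in H3.3G34R tumours, against 153, 494 and 922 in H3.3WT tumours. All 7 H3.3G34R tumours were below the H3.3WT median, 5 were below every H3.3WT tumour, and the log2 difference was -1.80 (SE 0.42, limma unadjusted p = 0.000642). It was -1.66 in Atrx-floxed and -1.96 in Atrx-intact tumours. Cdon (chr9:35421128-35507652), a cell-surface co-receptor for hedgehog ligands, had 81.6, 151 and 295 in H3.3G34R tumours, against 254, 398 and 581 in H3.3WT tumours, a log2 difference of -1.29 (SE 0.31, limma unadjusted p = 0.000794), with 6 of 7 H3.3G34R tumours below every H3.3WT tumour. Zic5, a zinc-finger gene of the neural tube, had 18.1, 26.6 and 80.6 in H3.3G34R tumours, against 29.8, 94.9 and 116 in H3.3WT tumours (log2 difference -1.31, SE 0.38, limma unadjusted p = 0.00327). Ccdc141, a centrosomal protein of migrating neurons, had 148, 339 and 614 in H3.3G34R tumours, against 334, 857 and 2335 in H3.3WT tumours (log2 difference -1.39, SE 0.41, limma unadjusted p = 0.00368). 2600014E21Rik, a long intergenic noncoding RNA, had 3.62, 16.3 and 45.8 in H3.3G34R tumours, against 25.5, 93.5 and 172 in H3.3WT tumours. Its log2 difference was -2.45, and its limma unadjusted p of 0.00035 was the smallest of this side. Mmp2, the gelatinase that cuts collagen IV, had 157, 325 and 987 in H3.3G34R tumours, against 294, 2327 and 5382 in H3.3WT tumours, a log2 difference of -1.81 (SE 0.62, limma unadjusted p = 0.0104).

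Groups that did not overlap at all were found for 2 of the 17776 genes (0.0113%), both lower with H3.3G34R. Fbxw10 (chr11:62847069-62877465), an F-box gene, had 6.92, 10.9 and 14.8 in H3.3G34R tumours, against 16.6, 26.5 and 44 in H3.3WT tumours, a log2 difference of -1.33 (SE 0.32, limma unadjusted p = 0.000784). Usp19 (chr9:108490602-108502337), a deubiquitinase of the endoplasmic reticulum, had 4236, 4970.5 and 5225 in H3.3G34R tumours, against 5334, 5902 and 6765 in H3.3WT tumours, a log2 difference of -0.30 (SE 0.11, limma unadjusted p = 0.0118). The gap was narrow in both. With a single library left out, 2 to 6 genes were without overlap. Fbxw10 and Usp19 were always among them, which only rescaling or the filter could have changed, so this is no sign of stability. With TMM scaling Fbxw10 alone met the condition. Other genes of the lower side were the AMP deaminase gene Ampd2 (log2 difference -0.46), the translation repressor gene Gigyf1 (-0.49) and the phosphodiesterase gene Smpdl3a (-0.44). Cpt1b, a mitochondrial fatty acid importer, had a log2 difference of -1.12, and Rerg, a small GTPase, one of -1.18. The small nucleolar RNA Snord37 (-1.07) and Tbx3os1 (-1.87), which is antisense, stand within or beside other genes, whose reads cannot be told apart from theirs without a known strand setting.

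The 2 Atrx states share no libraries, so each gave its own H3.3G34R difference when fitted alone. Over 17029 genes tested in both, 8693 (51.0%) had the same sign, and the log2 differences had a Pearson correlation of -0.095 and a Spearman correlation of -0.00024 across genes, which are not independent replicates. Of 471 genes (2.77%) with an unadjusted p under 0.05 in Atrx-floxed tumours, 237 (50.3%) had the same sign in Atrx-intact tumours, and of 249 such genes (1.46%) in Atrx-intact tumours, 129 (51.8%) had the same sign in Atrx-floxed ones. The genes that met the unadjusted threshold in both states numbered 15 (0.0881%), with 8 in the same direction and 7 in opposite directions. The 8 were Cfl2, Cav1 and Ighg2b, higher, and Tbx18, Fbxw10, Cdon, Ccdc141 and 2600014E21Rik, lower. Opposite were Adcy8, Xk, Ngef, Clmp and Ablim3, higher with H3.3G34R in Atrx-floxed tumours and lower in Atrx-intact ones, and Ssc5d and Col5a1, the other way round. Without p53_WT replicate 3 the correlation was 0.040 with 48.4% of signs the same, and without ATRXfl_G34R replicate 3 as well it was 0.083 with 50.1%.

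**Figure D3:**
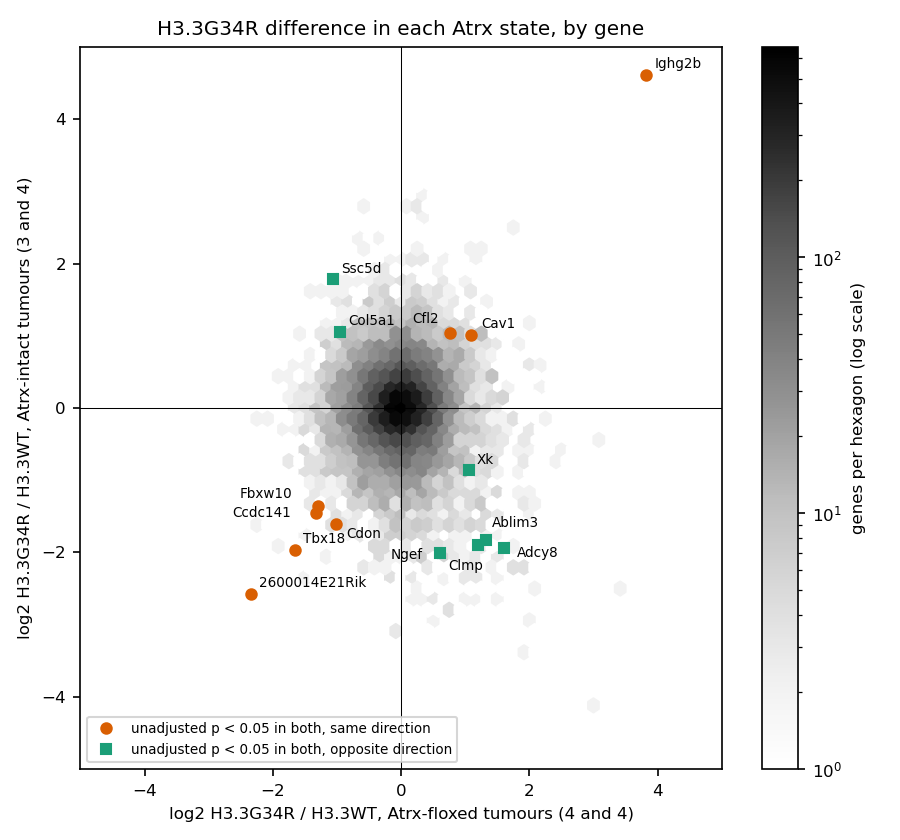
Log2 difference between H3.3G34R and H3.3WT tumours in Atrx-floxed (horizontal) and Atrx-intact tumours (vertical), each state fitted alone, with shading for the number of the 17029 genes per hexagon. Circles mark the 8 genes and squares the 7 genes with an unadjusted p under 0.05 in both states, in the same and in opposite directions, the Pearson correlation over the 17029 genes is -0.095, and values past the axes are drawn at their edge.

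The authors' own calls in each Atrx state were set side by side. In the authors' deposited table for Atrx-floxed tumours, 34 of 18712 genes with an adjusted p (0.182%) passed 0.05, 29 of them higher, and in the authors' deposited table for Atrx-intact tumours 12 of 20753 did (0.0578%), 7 of them higher. The authors' deposited tables had 0 such genes in common, and 12 of the 34 floxed calls had the same sign in the intact table, as did 7 of the 12 intact calls in the floxed one. Counted with limma changes, 14 of 33 floxed calls (42.4%) had the same sign in Atrx-intact tumours. Without p53_WT replicate 3 fewer of these calls were tested in both states, and 20 of 27 (74.1%) had the same sign. These shares thus cover different sets of genes, and the part of the lost genes in the rise was not tested. Over all genes tested in both states, the same leave-out took the share from 51.0% to 48.4%.

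A difference between the states was tested with an interaction term. With limma 0 of 17776 genes (0%) were called and 365 (2.05%) had an unadjusted p under 0.05, edgeR called 0 with 816 at an unadjusted p under 0.05, and DESeq2 called 7 of 17210 (0.0407%). Adcy8, a calcium-stimulated adenylyl cyclase of neurons, was among them. It had 488, 473, 542 and 386 in ATRXfl_G34R tumours, against 183, 167, 146 and 123 in ATRXfl_WT tumours. With intact Atrx it had 38.5, 66.6 and 39.9 in p53_G34R tumours, against 509.8, 56.3, 394 and 97.6 in p53_WT tumours. The 4 floxed mutant tumours thus exceeded the 4 floxed wild-type ones, whereas the intact groups overlapped, and the DESeq2 interaction was 4.05 on the log2 scale (limma 3.55). Socs5, a suppressor of cytokine signalling, had 3433, 3867, 3512 and 3281 in ATRXfl_G34R tumours, against 1473, 1908, 2453 and 1360.2 in ATRXfl_WT tumours, and 1750.1, 2566 and 2181.8 in p53_G34R tumours, against 1954, 2058, 3203 and 2979 in p53_WT tumours. Its floxed groups were separate and its intact groups overlapped (limma interaction 1.22). Xk, a membrane transport protein, had 342, 466.5, 329.8 and 379.8 in ATRXfl_G34R tumours, against 148, 116, 185 and 343 in ATRXfl_WT tumours, and 181, 235 and 353 in p53_G34R tumours, against 467, 563, 397 and 394 in p53_WT tumours. Here the floxed groups overlapped by a single H3.3WT tumour and the intact groups were separate, with the H3.3G34R tumours below (limma interaction 1.91).

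Genes of the opposite sign were Ccdc150, Col5a1 and Ssc5d. Col5a1, a chain of fibrillar collagen V, had 1368, 2067, 1434 and 1258 in ATRXfl_G34R tumours, against 3413, 5958, 2345 and 1512 in ATRXfl_WT tumours, and 5778, 2789.7 and 3097 in p53_G34R tumours, against 1288, 2286, 1827 and 1821 in p53_WT tumours. Each p53_G34R value was above each p53_WT value, and the floxed groups overlapped (limma interaction -2.01). The coiled-coil gene Ccdc150 had 10.7, 10.2, 8.89 and 7.23 in ATRXfl_G34R tumours, against 34.2, 26.9, 42.7 and 20.8 in ATRXfl_WT tumours, and 34.3, 43.3 and 34.6 in p53_G34R tumours, against 21.7, 18.1, 5.13 and 14.5 in p53_WT tumours. Neither pair of groups overlapped (limma interaction -3.04, DESeq2 -3.10). The scavenger receptor gene Ssc5d had a limma interaction of -2.85 and a DESeq2 interaction of -3.45, and its highest value was 3629 in p53_G34R replicate 1. DESeq2 also called Mobp, Syt1, Nrsn2 and Gm13394. Neuronal and oligodendrocyte markers were highest in ATRXfl_G34R replicate 3 among H3.3G34R tumours and in p53_WT replicate 3 among H3.3WT tumours. Oligodendrocyte markers summed to 93704 and 100434 there, against group medians of 20539 and 14189. Syt1 and Mobp are themselves members of these marker lists. The part of ATRXfl_G34R replicate 3 and p53_WT replicate 3 in those calls was not tested.

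The leading genes were not spread evenly over the genome, a pattern chosen after the values were seen. Using genes whose mean reached 100, the median log2 deviation from each gene's mean was taken per chromosome and tumour. On chromosome 12 (465 genes) it was -0.099, 0.17 and 0.26 in H3.3G34R tumours, against -0.60, -0.11 and 0.23 in H3.3WT tumours. The low values were p53_WT replicates 1 (-0.60), 2 (-0.52) and 4 (-0.34) and ATRXfl_WT replicate 4 (-0.30), and the other 4 H3.3WT tumours overlapped the H3.3G34R range. Chromosome 12 held 3.7% of the tested genes, but 53 of the 200 genes higher at an unadjusted p under 0.05 (26.5%) and 3 of the 221 lower (1.36%). The median pooled log2 difference of its genes was 0.24, with 83.2% above 0, and it was 0.15 in Atrx-floxed and 0.33 in Atrx-intact tumours. Cfl2 and Ighg2b lie on this chromosome.

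On chromosome 15 (521 genes) the medians were -0.091, 0.12 and 0.32 in H3.3G34R tumours, against -0.13, -0.078 and -0.034 in H3.3WT tumours. Positive values were confined to 5 of the 7 H3.3G34R tumours and to none of the 8 H3.3WT tumours. This chromosome held 3.92% of the tested genes and 26 of the 200 higher ones (13%), with Gdnf, Arfgap3, Trib1 and Nsmce2 among its leading genes. Its median pooled difference was 0.13, 0.21 in Atrx-floxed and 0.028 in Atrx-intact tumours. Chromosome 17 held 4.70% of the tested genes and 18 of the 200 higher ones (9%), and ATRXfl_WT replicate 4 stood at -0.51 there. Single tumours were also low on chromosome 19 (p53_WT replicate 1, -0.79), on chromosome 14 (p53_G34R replicate 1, -0.45, and p53_WT replicate 2, -0.53) and on chromosome 10 (ATRXfl_WT replicate 2, -0.40). On chromosome 16 the median difference was -0.14, with 22.8% of genes above 0. Copy number was not measured, and its part in these levels was not tested.

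**Figure D4:**
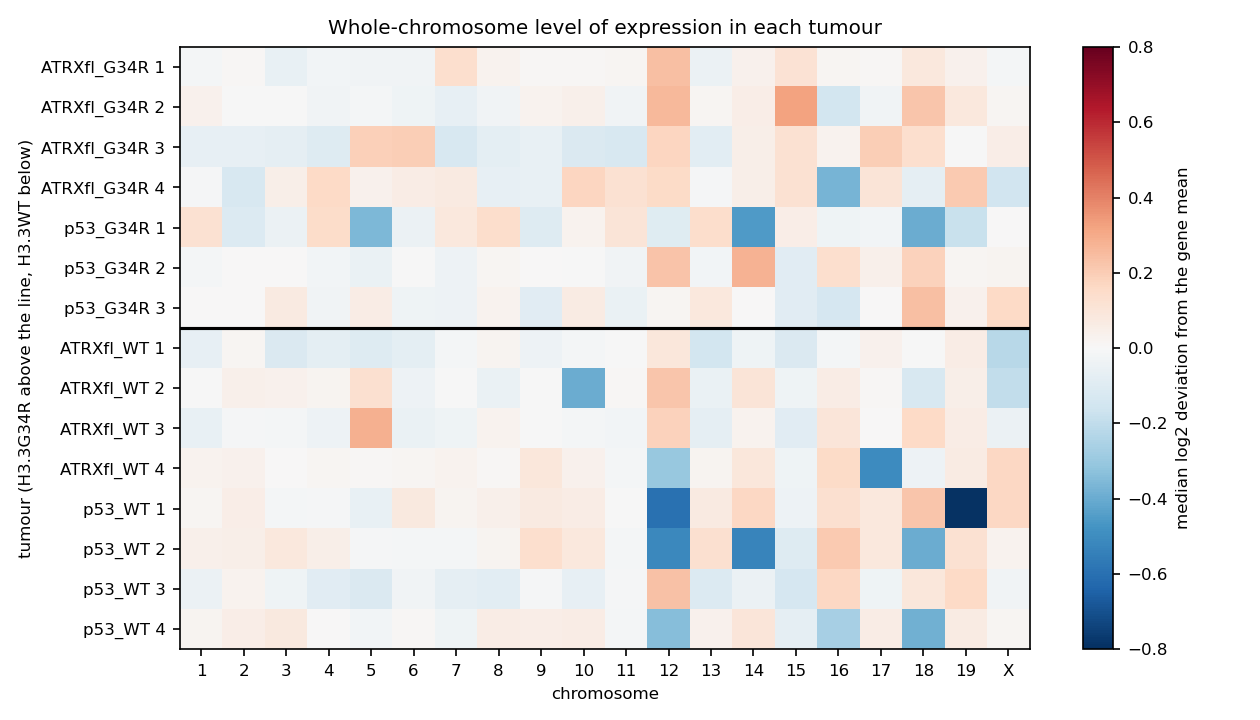
Median log2 deviation from the gene mean (colour) for each chromosome (horizontal) in each tumour (vertical), over genes whose mean reached 100, with H3.3G34R tumours above the line and H3.3WT tumours below it. Whole chromosomes stand out in single tumours, such as chromosome 19 in p53_WT replicate 1 (-0.79), and chromosome 12 is low in 4 of the 8 H3.3WT tumours.

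When each tumour's chromosome medians were subtracted, an alternative added after this was seen, 0 genes were called by limma and the unadjusted p was under 0.05 for 132 higher and 230 lower genes. Chromosome 12 then held 4 higher and 11 lower ones, and chromosome 15 held 7 and 22. The log2 difference of Cfl2 was then 0.63 (SE 0.18, limma unadjusted p = 0.00362), that of Arfgap3 0.58 and that of Gdnf 1.97. Trib1 stood at 0.76 (0.91 before, limma unadjusted p then 0.00644) and Nsmce2 at 0.37 (0.52 before, limma unadjusted p then 0.0251). Cav1 stood at 1.02, Tbx18 at -1.72 and Fbxw10 at -1.34. Other chromosome 12 genes are described further on. Of these, Riox1 stood at 0.32 (0.57 before the subtraction), Sox11 at 0.50 (0.75), Dlk1 at 1.43 (1.68) and Sdc1 at 0.71 (0.96). Their limma unadjusted p was then 0.072 for Riox1, 0.152 for Sox11, 0.0783 for Dlk1 and 0.128 for Sdc1, each no longer under 0.05. Ighg2b, also on chromosome 12, stood at 3.94 (4.18 before), with a limma unadjusted p of 0.00451.

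Neighbouring genes, also chosen after values were seen, were read around the 2 clusters, within 3 Mb on either side. Of all tested genes, 49.2% had a positive log2 difference and 2.37% an unadjusted p under 0.05. Around Trib1, 26 of 29 tested genes had a positive log2 difference, with a median of 0.18, and 3 had an unadjusted p under 0.05: Trib1, Nsmce2 and Sqle, the squalene epoxidase of cholesterol synthesis (0.73). The same window holds the oncogene Myc (chr15:61985391-61990374), which had 2357, 4530.4 and 7034 in H3.3G34R tumours, against 739, 2392 and 6571 in H3.3WT tumours, a log2 difference of 0.71 (SE 0.41, limma unadjusted p = 0.0983). The noncoding Pvt1 beside Myc differed by 0.66. Myc overlapped between the histones, with 2 of 7 H3.3G34R tumours above every H3.3WT tumour. Around Cav1, 13 of 19 genes were positive, with a median of 0.11, and 3 had an unadjusted p under 0.05 (Cav1, Cav2 and Gm4876). Tes, a focal adhesion gene of that window, differed by 0.65, and the receptor kinase gene Met by -0.076.

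Gene groups of the biology named by the study were described by their members' counts and medians, beside all tested genes, of which 8750 of 17776 (49.2%) had a positive log2 difference with a median of -0.0048. limma called 0 members of every list. The machinery around the mutated residue was read as 3 lists, beside 2.37% of all tested genes with an unadjusted p under 0.05. Among H3K36 writers, erasers and readers 10 of 26 were positive (median -0.061), and 1, the histone demethylase gene Riox1, had an unadjusted p under 0.05 on the higher side. Riox1, which also lies on chromosome 12, had 316, 476 and 644 in H3.3G34R tumours, against 192, 361 and 443 in H3.3WT tumours (log2 difference 0.57, SE 0.20, limma unadjusted p = 0.0117). Nsd1, an H3K36 dimethyltransferase, had 5030.2, 7256 and 8629 in H3.3G34R tumours, against 5894, 8374 and 9571 in H3.3WT tumours (log2 -0.21). PRC2 and PRC1 subunits had 14 of 30 positive (median -0.063) and none under an unadjusted 0.05, and H3.3 chaperones and remodellers had 10 of 17 (median 0.055), also with none. The H3K36 list's median turned to 0.085 without ATRXfl_G34R replicate 4 and p53_G34R replicate 1.

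Polycomb targets were read as 2 lists, Hox genes and other regulators. Hox genes, which set position along the body axis and are kept silent in the forebrain by Polycomb, passed the filter for 8 of 39, and a member passes only through tumours where it is high. The 8 that passed the filter were positive in the limma fit (median 0.93, 1.39 in Atrx-floxed and 0.71 in Atrx-intact tumours), while edgeR and DESeq2 gave a median of -0.10 and -0.095, and no member had an unadjusted p under 0.05. Hoxa5 had 692, 806, 487 and 903 in ATRXfl_G34R and 97.7, 118 and 55.9 in p53_G34R tumours, against 399, 492, 194 and 45.4 in ATRXfl_WT and 14.1, 1234, 0 and 68.5 in p53_WT tumours. The highest value of all was thus in p53_WT replicate 2, and the one at 0 in p53_WT replicate 3. Hoxa7 had 18.2, 123 and 1278 in H3.3G34R tumours, against 0, 18.3 and 683 in H3.3WT tumours (log2 difference 1.87, SE 1.23, limma unadjusted p = 0.15), with wide overlap. Other developmental regulators under Polycomb control had 31 of 73 tested members positive of 118 listed. Their median was -0.11, with -0.51 by edgeR and 0.11 without ATRXfl_WT replicate 1. At an unadjusted p under 0.05, 3 were higher (4.11%, against 1.13% of all tested genes) and 2 lower (2.74%, against 1.24%).

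Brain patterning genes of this list varied widely between tumours. Vax1, a homeobox gene of the ventral forebrain and optic stalk, had 0, 79 and 146 in H3.3G34R tumours, against 0, 3.31 and 27.6 in H3.3WT tumours, and 5 of 7 H3.3G34R tumours exceeded every H3.3WT tumour (log2 difference 3.26, SE 1.08, limma unadjusted p = 0.00837). Lmx1a, a homeobox gene of midbrain dopamine neurons and the roof plate, had 3.46, 21.4 and 127 in H3.3G34R tumours, against 0, 5.25 and 13.1 in H3.3WT tumours (log2 difference 1.77, SE 0.71, limma unadjusted p = 0.0241). Vax1 and Lmx1a passed the filter, a mean of at least 10, through H3.3G34R tumours where they were high. Their direction is thus not independent of the filter. Emx2, a cortical homeobox gene, had 19.4, 1.02, 203 and 1.21 in ATRXfl_G34R and 127, 248 and 7.99 in p53_G34R tumours, against 8.8, 176, 71.4 and 197 in ATRXfl_WT and 175, 11.7, 349 and 41.5 in p53_WT tumours. The groups overlapped in both Atrx states. Over dorsal forebrain and projection neuron genes 5 of 22 were positive (median -0.42), with 0.18 in Atrx-floxed and -0.98 in Atrx-intact tumours. Without p53_WT replicate 3 the median was -0.040, and with limma-voom it was 0.012.

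No Notch gene passed the test. Of 39 members 12 were positive (median -0.10), -0.25 in Atrx-floxed and 0.18 in Atrx-intact tumours. Hes1 was the 1 member with an unadjusted p under 0.05 (2.56% on the higher side, against 1.13% of all tested genes). The receptor gene Notch3, which pericytes also express, had 227, 997 and 1400.4 in H3.3G34R tumours, against 574, 1281 and 6391 in H3.3WT tumours (log2 difference -0.97, SE 0.47, limma unadjusted p = 0.0542), and its highest value was in ATRXfl_WT replicate 1, the library with the most mural markers. The list's median changed its sign in 1 of the 31 alternatives.

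Genes of neuronal fate and differentiation had 29 of 47 positive (median 0.17), with 3 higher (6.38%, against 1.13% of all tested genes) and none lower at an unadjusted p under 0.05. The median was 0.41 in Atrx-floxed and -0.19 in Atrx-intact tumours, and -0.10 with edgeR and -0.029 with DESeq2. Cd24a, a surface protein of immature neurons, had 614, 913 and 1796 in H3.3G34R tumours, against 168, 433 and 1046 in H3.3WT tumours (log2 difference 1.26, SE 0.43, limma unadjusted p = 0.00966). Sox11, a transcription factor of newborn neurons that lies on chromosome 12, had 2538, 3839 and 6782 in H3.3G34R tumours, against 1224, 2479 and 4219 in H3.3WT tumours (log2 difference 0.75, SE 0.29, limma unadjusted p = 0.019). In both, 3 of 7 H3.3G34R tumours exceeded every H3.3WT tumour. Ebf2, a helix-loop-helix factor of migrating neurons, had 6.24, 26.8 and 48.8 in H3.3G34R tumours, against 0.855, 6.03 and 96.8 in H3.3WT tumours (log2 difference 1.55, SE 0.71, limma unadjusted p = 0.0452). Synapse genes of mature neurons had 13 of 38 positive and a median of -0.25, which was 0.67 in Atrx-floxed and -0.88 in Atrx-intact tumours. Without p53_WT replicate 3 that median was 0.29.

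The medians of 2 glial lists changed sign without p53_WT replicate 3. Oligodendrocyte progenitor genes had 19 of 26 positive (median 0.27), and -0.11 without that library. C1ql1, a secreted synapse organizer, had 3816, 5428 and 11051 in H3.3G34R tumours, against 683, 2767 and 11241 in H3.3WT tumours (log2 difference 0.97, SE 0.49, limma unadjusted p = 0.0656). Astrocyte genes had 8 of 24 positive (median -0.27), and 0.12 without that library, with 2 lower at an unadjusted p under 0.05 (8.33%, against 1.24% of all tested genes). These were Id4, an inhibitor of helix-loop-helix factors, with 55.9, 82.3 and 508 in H3.3G34R tumours, against 125.5, 249.96 and 992 in H3.3WT tumours (log2 difference -1.16, SE 0.54, limma unadjusted p = 0.0499), and Sparcl1, a secreted synapse-promoting protein, at -0.78. In Id4, 5 of 7 H3.3G34R tumours were below every H3.3WT tumour. Mature oligodendrocyte genes had 12 of 20 positive (median 0.11), 0.47 in Atrx-floxed and -0.29 in Atrx-intact tumours. Their summed level was highest in p53_WT replicate 3 (147668) and ATRXfl_G34R replicate 3 (143822). The pooled median was 0.45 without the former and -0.15 without the latter. Wnt, Bmp and hedgehog genes had 19 of 41 positive (median -0.069), with 1 lower at an unadjusted p under 0.05 (2.44%, against 1.24% of all tested genes). It was Nog, the BMP antagonist noggin, with 78.1, 109 and 156 in H3.3G34R tumours, against 76.8, 183 and 258 in H3.3WT tumours (log2 difference -0.62, SE 0.29, limma unadjusted p = 0.0451).

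**Figure D5:**
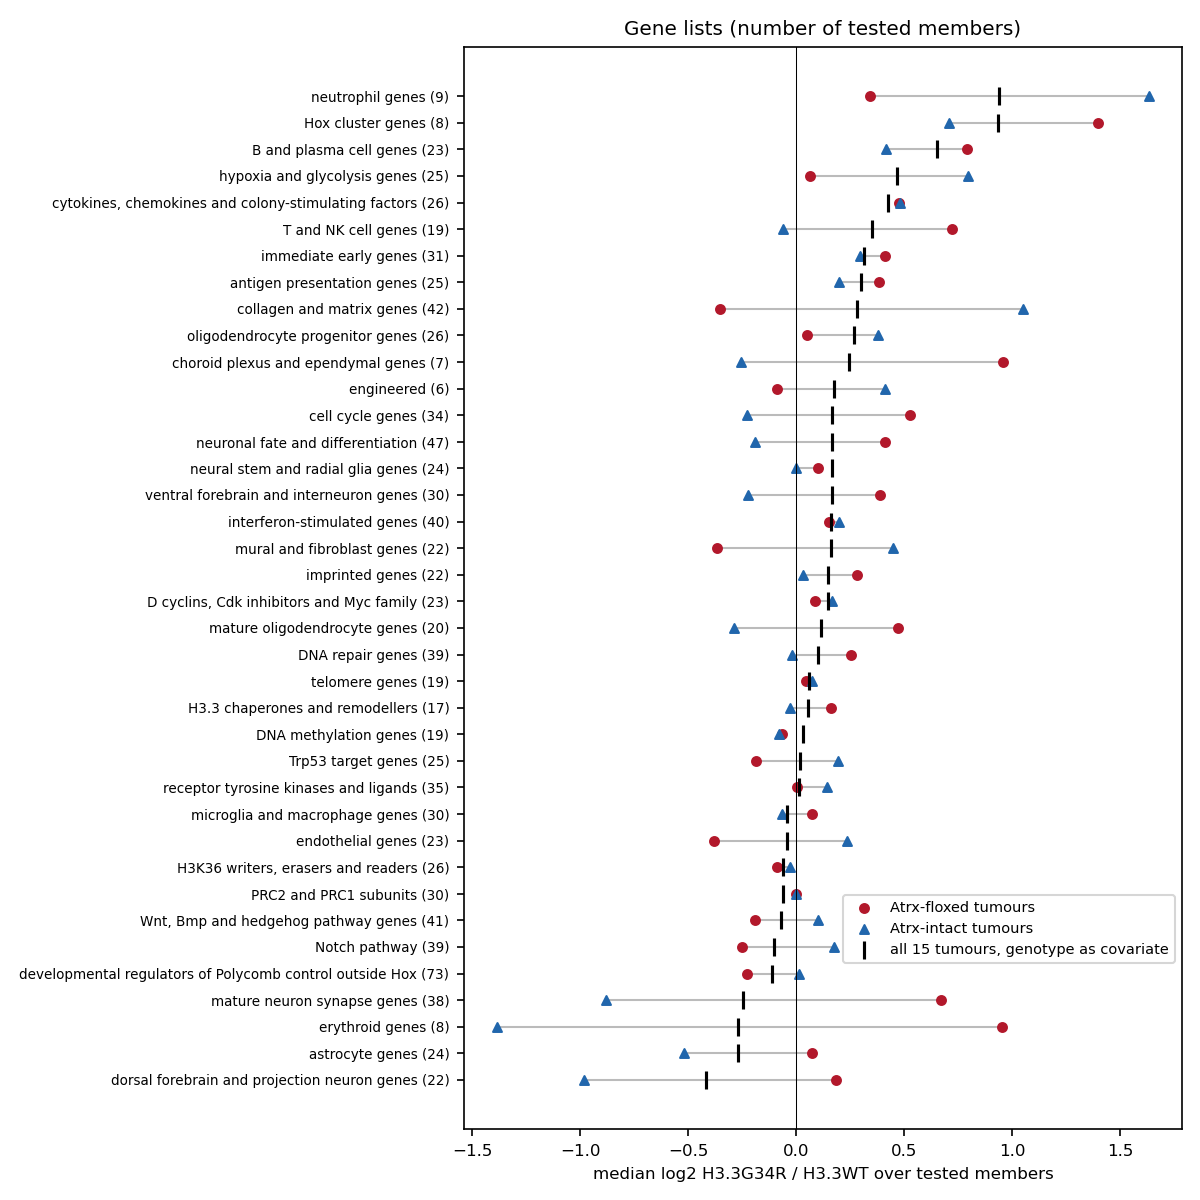
Median log2 difference between H3.3G34R and H3.3WT tumours over the tested members of each of 38 gene lists, in Atrx-floxed tumours (circles), Atrx-intact tumours (triangles) and all 15 tumours with genotype as covariate (bars). Many lists have their 2 states on opposite sides of 0, such as synapse genes of mature neurons (0.67 and -0.88) and collagen and matrix genes (-0.35 and 1.05).

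Immune lists mostly had positive medians. B and plasma cell genes had 18 of 23 positive (median 0.65) and 6 higher at an unadjusted p under 0.05 (26.1%, against 1.13% of all tested genes), and the median stayed between 0.41 and 1.28 when single libraries were left out. Mzb1, a plasma cell chaperone, had 4.33, 16.5 and 193 in H3.3G34R tumours, against 0, 5.63 and 39.1 in H3.3WT tumours (log2 difference 1.97, SE 0.74, limma unadjusted p = 0.0175). Mzb1 passed the filter through H3.3G34R tumours where it was high. Sdc1, a plasma cell proteoglycan that tumour cells also make, lies on chromosome 12. It had 504, 1304 and 2167 in H3.3G34R tumours, against 170.1, 754 and 1082 in H3.3WT tumours (log2 difference 0.96, SE 0.39, limma unadjusted p = 0.0279). Neutrophil genes had 8 of 9 positive of 15 listed (median 0.94; 0.62 without p53_WT replicate 3 and 0.44 without the 2 immunoglobulin-rich libraries), though the defining surface marker Ly6g was at 0 in 6 of 7 H3.3G34R and 7 of 8 H3.3WT tumours. Il1b, the inflammatory interleukin-1 beta, had 77.9, 332 and 789.7 in H3.3G34R tumours, against 4.25, 47.1 and 783 in H3.3WT tumours (log2 difference 2.09, SE 0.72, limma unadjusted p = 0.0112), and it overlapped. Cytokines and chemokines had 23 of 26 positive (median 0.42), and -0.00028 without ATRXfl_G34R replicate 4 and p53_G34R replicate 1. Il34, a ligand of the microglial receptor CSF1R, stood on the lower side with 208, 404 and 572 in H3.3G34R tumours, against 309, 655 and 2234 in H3.3WT tumours (log2 difference -0.99, SE 0.42, limma unadjusted p = 0.0318).

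Lists of T and NK cells (13 of 19 positive, median 0.35), antigen presentation (22 of 25, 0.30) and interferon response (30 of 40, 0.16) had no member under an unadjusted p of 0.05. Without the 2 immunoglobulin-rich libraries the interferon median was -0.34 and that of antigen presentation 0.0077. Cd74, the invariant chain of MHC class II, had 3961, 17245 and 32978 in H3.3G34R tumours, against 2293, 7997 and 24088 in H3.3WT tumours (log2 difference 1.02, SE 0.59, limma unadjusted p = 0.103). Microglia and macrophage genes had 14 of 30 positive and a median of -0.041, which was -0.46 without the 2 immunoglobulin-rich libraries and 0.20 without p53_WT replicate 3, and changed its sign in 10 of the 31 alternatives. Infiltrating cells' part in these medians was not tested beyond leaving out these libraries.

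Immediate early genes, which follow growth factor signalling and also tissue handling, had 26 of 31 positive (median 0.31; 0.41 in Atrx-floxed and 0.29 in Atrx-intact tumours), and their median was positive under all 31 alternatives, as were those of B and plasma cell, neutrophil and imprinted genes. Its size depended on ATRXfl_WT replicate 1, without which it was 0.61. Besides Jun, the AP-1 gene Fosl1 had 220.2, 389 and 849 in H3.3G34R tumours, against 36.9, 258 and 388 in H3.3WT tumours (log2 difference 0.90, SE 0.44, limma unadjusted p = 0.059). Hypoxia and glycolysis genes had 23 of 25 positive (median 0.46), and -0.021 without the 2 immunoglobulin-rich libraries. Vegfa, the angiogenic growth factor, had 6716, 14341 and 42019 in H3.3G34R tumours, against 1859, 9888 and 18829 in H3.3WT tumours (log2 difference 1.16, SE 0.57, limma unadjusted p = 0.0589).

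Collagen and matrix genes had 31 of 42 positive (median 0.28), with opposite medians in the states, -0.35 in Atrx-floxed and 1.05 in Atrx-intact tumours. Without ATRXfl_WT replicate 1 the pooled median was 0.54. Beside Mmp2 on the lower side (2.38%, against 1.24% of all tested genes), 4 members were higher at an unadjusted p under 0.05 (9.52%, against 1.13% of all tested genes). Col16a1, a fibril-associated collagen, had 11545, 16679 and 38858 in H3.3G34R tumours, against 3318, 13533 and 14591 in H3.3WT tumours (log2 difference 0.83, SE 0.35, limma unadjusted p = 0.0318), with 5 of 7 H3.3G34R tumours above every H3.3WT tumour. Mmp13, a collagenase, had 15.8, 96.5 and 1067 in H3.3G34R tumours, against 4.67, 33.8 and 242 in H3.3WT tumours (log2 difference 2.42, SE 0.88, limma unadjusted p = 0.0142), and Thbs1, the matrix protein thrombospondin 1, had 821, 1931 and 5859 in H3.3G34R tumours, against 248, 839 and 3831 in H3.3WT tumours (log2 difference 1.14, SE 0.42, limma unadjusted p = 0.0169). Mmp2 and Mmp13, both matrix proteases, thus had log2 differences of opposite sign.

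Proliferation, repair, telomere, p53 target and imprinting lists were read against the same 2.37% of all tested genes. Cell cycle genes had 30 of 34 positive (median 0.17), 0.53 in Atrx-floxed and -0.23 in Atrx-intact tumours, with none under an unadjusted p of 0.05 and a median of -0.020 without p53_WT replicate 3 and -0.021 without ATRXfl_WT replicate 1. DNA repair genes had 28 of 39 positive (median 0.10; -0.031 with edgeR), and the 1 member under an unadjusted 0.05 was Xrcc5, the Ku80 subunit of end joining, with 1248, 1491 and 1949 in H3.3G34R tumours, against 731, 1177 and 1617 in H3.3WT tumours (log2 difference 0.40, SE 0.18, limma unadjusted p = 0.044). Telomere genes, of interest because ATRX loss goes with telomere maintenance by recombination, had 11 of 19 positive (median 0.058) and none under it. Among p53 targets, which are read here in tumours that all carry floxed p53 alleles, 13 of 25 were positive (median 0.016), and Phlda3, an Akt inhibitor, had 1734, 2833 and 4031 in H3.3G34R tumours, against 1083, 1853 and 3179 in H3.3WT tumours (log2 difference 0.61, SE 0.22, limma unadjusted p = 0.0139). Imprinted genes had 16 of 22 positive (median 0.15; 0.29 without p53_WT replicate 3): Dlk1, a Notch-like ligand on chromosome 12, had 674, 1279 and 9214 in H3.3G34R tumours, against 44.5, 612 and 3410.2 in H3.3WT tumours (log2 difference 1.68, SE 0.77, limma unadjusted p = 0.0445), Sgce stood at 0.36 and Peg10, on the other side, at -0.58.

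The remaining lists lay close to all genes or moved apart between the states. Receptor tyrosine kinases and their ligands had 18 of 35 positive (median 0.011). Gdnf was the 1 member under an unadjusted p of 0.05 (2.86% on the higher side, against 1.13% of all tested genes). DNA methylation genes had 10 of 19 positive (median 0.032). D cyclins, Cdk inhibitors and the Myc family had 15 of 23 positive (median 0.15), and neural stem and radial glia genes 13 of 24 (median 0.17). Ventral forebrain and interneuron genes had 17 of 30 positive (median 0.17), with 0.39 in Atrx-floxed and -0.23 in Atrx-intact tumours. Vascular markers had opposite medians in the states: endothelial genes -0.38 in Atrx-floxed and 0.24 in Atrx-intact tumours, and mural and fibroblast genes -0.37 and 0.45. Both lists had their highest summed level in ATRXfl_WT replicate 1 (184782 and 248891). Without that library the pooled median was 0.31 for endothelial genes (-0.043 with it) and 0.27 for mural and fibroblast genes (0.16 with it). Erythroid genes stood at 0.95 in Atrx-floxed and -1.39 in Atrx-intact tumours, and choroid plexus and ependymal genes at 0.95 and -0.26. The pooled medians of these lists (-0.27 and 0.24) changed sign in 5 and 2 of the leave-outs of a single library.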

How the data were processed

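RNA of mouse brain tumours was isolated by the Qiagen RNeasy kit and sequenced as TruSeq mRNA libraries, per the labels' protocols. Per the submitters' processing notes, STAR 2.7, HTSeq and DESeq2 were used on the mm10 build, and other settings, with the strand and the annotation, are not stated in the sources used here. The authors deposited 5 tables of 54232 genes, whose library columns hold a signal, each gene's reads divided by a size factor of that table. Per the file headers, the authors' tables add DESeq2's log2 fold change, a standard error of it, the Wald statistic (a score) and p-values before and after adjustment. In 100% of values the signal was a whole multiple (within 0.01) of the value of 1 read, so whole reads were recovered by division, and 38 of 38 columns gave the same reads for the same library. In 3 columns that value lay near 1, and they were not used for this.

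The recovered reads of all 15 libraries were scaled together by the median of ratios. limma 3.58.1 (trend and robust, R 4.3.3) was fitted to log2 of the normalized count plus a pseudocount of 1, which understates changes of low genes, for genes averaging at least 10, with histone and Atrx genotype as terms. A gene was called under a Benjamini-Hochberg adjusted p of 0.05. The value within each Atrx state comes from a fit of the 4 groups, except where each state was fitted and scaled alone. edgeR 4.0.16, DESeq2 1.42.0, limma-voom, TMM scaling, other pseudocounts, no filter, summed libraries of shared title code, Xist as a covariate and leaving out libraries were alternatives. The pooled fits of limma, edgeR, DESeq2 and limma-voom were also run on simulated data, and the interaction and the other alternatives were not. Gene symbols and positions are those of GENCODE vM21 (54079 IDs, 99.7%), which may not be the authors' annotation. Named genes are the engineered genes, the 12 with the smallest p in each direction, those without overlap, up to 4 members of each list by p and the 3 with the smallest interaction p in each direction. DESeq2 calls, genes under an unadjusted p of 0.05 in both states, chromosomes and neighbours were chosen after their values were seen. The members and the 38 lists were chosen with earlier results of these data known. Labels give no replicate numbers, so these follow accession order and pair nothing. Pairs of libraries of 1 group (21 pairs) differed by a chi-square of at least 89.8 per degree of freedom, far above the sampling noise of a library sequenced again. No library was left out of the reported fit.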

Additional observations from a re-analysis of the deposited data

Results flagged for a closer look

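Single tumours stood apart from the rest of their histone group, by Dixon's criterion, in 12 of 112 groups of values, where chance gives about 1 in 20. The 112 groups are 36 genes and 20 chromosomes in each of the 2 histones. Normalized counts, on the log2 scale, were lowest in p53_WT replicate 3 for H3f3b (11.8), Pdgfa (10.3) and Pdgfra (12.4), the library with the most neuronal and the fewest oligodendrocyte progenitor markers. Pdgfra is itself in the progenitor marker list, so these readings of it are not independent. Zic5 was lowest in p53_WT replicate 2 (4.94), Rerg was lowest in ATRXfl_WT replicate 4 (6.72), and Ssc5d was highest in p53_G34R replicate 1 (11.8).

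Whole-chromosome medians of log2 deviation stood apart in 6 groups. Among H3.3G34R tumours, chromosome 6 was high in ATRXfl_G34R replicate 3 (0.19) and chromosome 14 low in p53_G34R replicate 1 (-0.45). Among H3.3WT tumours, chromosome 10 was low in ATRXfl_WT replicate 2 (-0.40), chromosome 14 in p53_WT replicate 2 (-0.53), chromosome 17 in ATRXfl_WT replicate 4 (-0.51) and chromosome 19 in p53_WT replicate 1 (-0.79).

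A DESeq2 interaction term set the H3.3G34R difference in Atrx-floxed apart from that in Atrx-intact tumours for 7 genes, none of them called by limma or edgeR. On the log2 scale, floxed minus intact, it was 11.5 for Mobp, a myelin gene, 9.33 for Syt1, a synaptic vesicle calcium sensor, 8.66 for Nrsn2, a neuronal vesicle gene, and 4.05 for Adcy8. It was -3.10 for Ccdc150, -3.45 for Ssc5d and -6.67 for the predicted gene Gm13394. With limma the H3.3G34R difference was 2.21 in Atrx-floxed and -4.05 in Atrx-intact tumours for Mobp, 2.72 and -3.24 for Syt1, 2.67 and -2.09 for Nrsn2, and 0.25 and 4.803 for Gm13394. The part of ATRXfl_G34R replicate 3 and p53_WT replicate 3, the libraries richest in neuronal and oligodendrocyte markers, in these differences was not tested.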

How the results depend on the processing

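limma called 0 genes between the histones under each alternative run, and so did edgeR and limma-voom, whereas DESeq2 called 8 (Igkj1, Jchain, Gdnf, Slfn4, Cfl2, Tbx18, 2600014E21Rik and Mmp2) and, for the interaction, 7. DESeq2 calls between the histones ran between 0 and 11 with a library left out, and were 1 without ATRXfl_G34R replicate 4 and p53_G34R replicate 1 and 11 without p53_WT replicate 3 and ATRXfl_G34R replicate 3. Genes without overlap numbered 2 in the reported analysis, 1 with TMM scaling, 11 without either of these pairs, and 2 to 6 with a library left out. Lists with a positive median numbered 27 of 38, against 17 with edgeR and 16 with DESeq2, where the median of all genes shifted to -0.05. Of the 38 list medians, 4 kept their sign under all 31 alternatives and 22 changed it when some single library was left out. No paired analysis was possible because the labels give no replicate numbers. The number of libraries and the spread within groups limit the size of change that could be called. Causes were not tested.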
